A study of Mus musculus with 6 samples.

Results

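The genes described here are 10 mouse genes used as markers of the contractile and supporting cells of kidney vessels and glomeruli: Acta2, Tagln, Myh11, Cnn1, Itga8, Rgs5, Des, Pdgfrb, Pdgfra and Notch3. They were taken by name from a list of smooth muscle, mesangial and pericyte genes, not by a threshold on their values, though earlier results of these data were known when the list was chosen. They make up 10 of the 54146 genes in the deposited table. All 10 were found, and all 10 had enough counts to be tested. Bulk RNA was sequenced from kidney tissue of G2APOL1, G0APOL1 and WT mice, with 2 libraries in each of the 3 groups. Each library was made with RNA from 10 mg of frozen kidney. G2APOL1 mice carried the human apolipoprotein L1 gene (APOL1) in the G2 form that is linked to kidney disease, and G0APOL1 mice carried its reference form, in both cases as an inducible and cell-specific transgene. WT mice were the reference for both. All 3 groups shared the same procedure: a kidney was removed when the mice were 6 weeks old, and a diet with 4% salt followed. The study's design text puts the prefix EC before both transgenic genotypes without spelling it out, and the sources used here do not give the promoter, the inducer, the sex, the age at collection or the number of animals per library. Whether the replicates are separate animals is likewise not stated, so p-values and errors measure the spread between these samples, which may be technical.

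As background, vascular smooth muscle cells wrap arteries and arterioles, pericytes wrap capillaries, and mesangial cells hold the capillary loops of the glomerulus together. All of them are counted here as mural cells. Smooth muscle cells contract on filaments of smooth muscle actin and myosin. In these cells, serum response factor and its partner myocardin switch on the filament genes at a DNA element called the CArG box. Platelet-derived growth factor from endothelium recruits mural cells through the receptor Pdgfrb. Notch3, stimulated by Jagged ligands on endothelium, keeps arterial smooth muscle in its mature state.

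Total counts ran from 8490396 to 11800932 per library, and 14386 genes passed the filter on low counts. Mitochondrial transcripts made up 12.6% and 14.3% of counts in G2APOL1, 15.5% and 15.9% in G0APOL1 and 14.6% and 21.1% in WT. Proximal tubule markers, the most abundant of the kidney lists, summed over 14 genes to between 32074 and 55449 CPM (normalised read counts, scaled between libraries with TMM) in each library.

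Per kilobase of exon, Acta2 had the highest level of the 10 genes and Tagln the next highest in all 3 groups. Acta2, the alpha actin of smooth muscle, averaged 31.0 ± 6.74 CPM per kb in G2APOL1, 25.3 ± 3.70 in G0APOL1 and 54.9 ± 1.90 in WT (SD, n = 2 each, as for all levels below). Tagln, the actin-binding protein transgelin, averaged 24.1 ± 1.80 CPM per kb in G2APOL1, 16.0 ± 0.0362 in G0APOL1 and 40.6 ± 6.46 in WT. Rgs5, a brake on G protein signalling that marks pericytes, came next in each group, with a mean of 12.2 CPM per kb in G2APOL1, 9.79 in G0APOL1 and 23.9 in WT. The libraries of these 3 genes did not overlap with those of the gene below them in any group. The middle of the order was less clear. In WT, Pdgfrb at 7.01, Myh11 at 6.86 and Des at 6.55 CPM per kb overlapped between neighbours, and so did Pdgfra at 4.36, Itga8 at 3.90 and Cnn1 at 2.56. At the bottom, Notch3 averaged 0.701 CPM per kb in G2APOL1, 1.30 in G0APOL1 and 1.51 in WT, and in G0APOL1 it stood above Cnn1 at 1.11, with overlapping libraries, and above Itga8 at 0.966, without overlap.

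**Figure D1:**
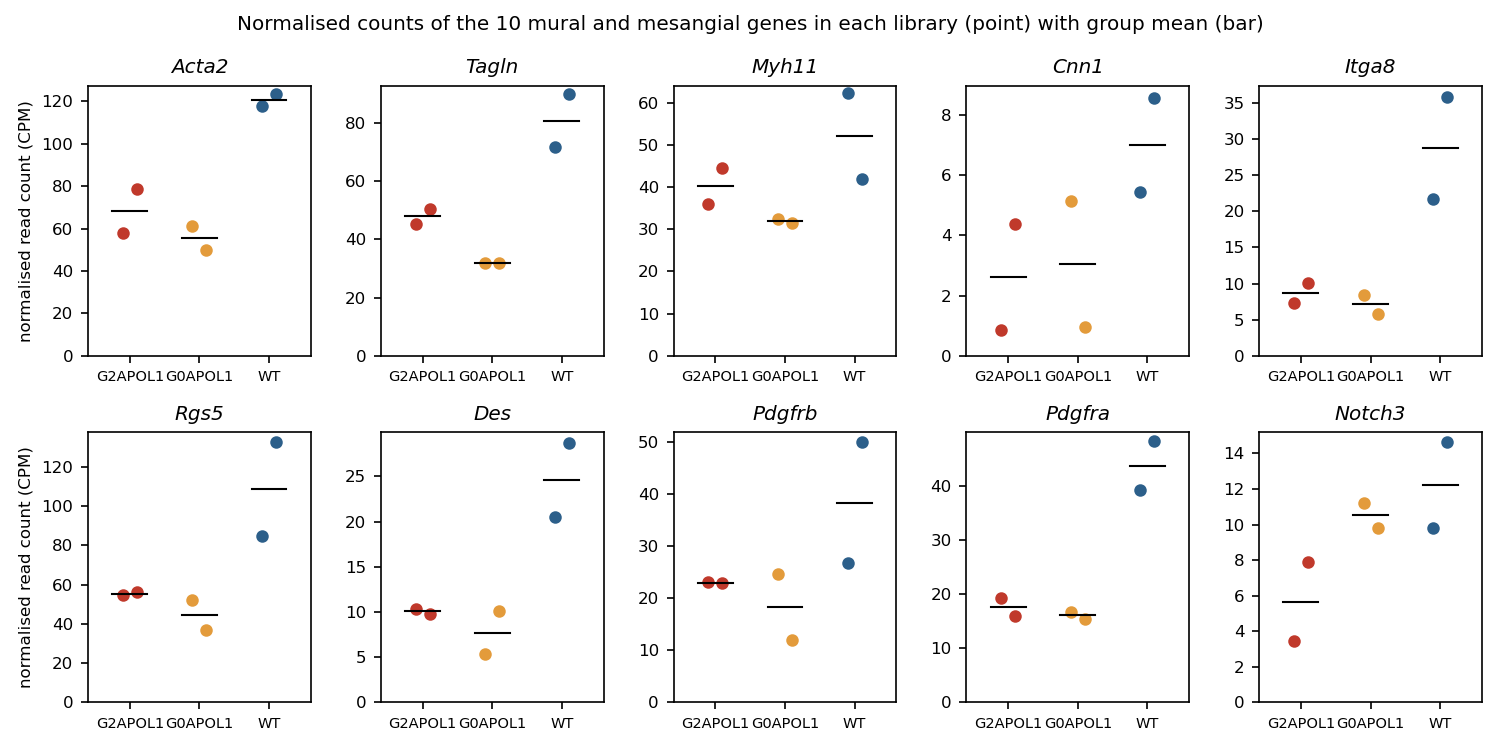
Normalised read counts (CPM, vertical axis from 0) of each of the 10 genes in the G2APOL1, G0APOL1 and WT libraries; each point is a library and each bar a group mean of 2. Both WT points lie above all 4 transgenic points for 8 of the genes, and not for Myh11 or Notch3. The share of all genes with this pattern was not computed. Against each transgenic group alone, both WT libraries lay above for 28.1% of all genes in G2APOL1 and 24.3% in G0APOL1.

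Summed over the 10 genes, normalised counts were 258 and 301 CPM in G2APOL1, 249 and 204 CPM in G0APOL1 and 460.1 and 574 CPM in WT. Against the WT mean, the G2APOL1 libraries stood at 49.97% and 58.2%, the G0APOL1 libraries at 48.2% and 39.5%, and the WT libraries themselves at 89.0% and 111%. All 4 transgenic sums were below both WT sums. Abundant genes weigh most in such a sum, so each gene is also given separately. In bulk tissue, fewer cells of a type and less RNA per cell cannot be told apart. Each library came from 10 mg of kidney, so its mix of kidney regions may also differ, which was not tested.

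In G2APOL1 against WT, 5 of the 10 genes fell with edgeR's quasi-likelihood test at an adjusted p under 0.05 (Acta2, Tagln, Itga8, Rgs5 and Pdgfra), none rose, and all 10 fold changes were below 0. Among all 14386 genes tested, 3.62% were called lower, 4.57% higher and 8.19% in either direction, and 52.2% had a fold change below 0. At an unadjusted p under 0.05 there were 7 of the 10 genes, against 22.6% of all genes. The median log2 fold change was -1.04 for the 10 genes and -0.04 for all genes. In G0APOL1 against WT, 6 of the 10 fell (Acta2, Tagln, Itga8, Rgs5, Pdgfra and Des), none rose, and all 10 fold changes were again below 0. There 3.68% of all genes were called lower, 4.48% higher and 8.17% in either direction, 48.8% had a fold change below 0, and 8 of the 10 genes had an unadjusted p under 0.05, against 22.5% of all genes. The median was -1.24 for the 10 genes and 0.02 for all genes. Both comparisons use the same 2 WT libraries, so they are not independent of each other. Both transgenic libraries lay below both WT libraries for 9 of the 10 genes in G2APOL1, where Myh11 overlapped, and for 9 in G0APOL1, where Notch3 overlapped. Over all genes this happened for 28.1% in G2APOL1 and 24.3% in G0APOL1. Leaving out 1 library moved these counts: in G2APOL1 against WT 0 genes passed without either G2APOL1 library, 1 (Pdgfra) without WT replicate 2 and 6 in the remaining cases. In G0APOL1 against WT 3 passed without G0APOL1 replicate 2, 7 without WT replicate 1 and 6 in the remaining cases.

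**Figure D2:**
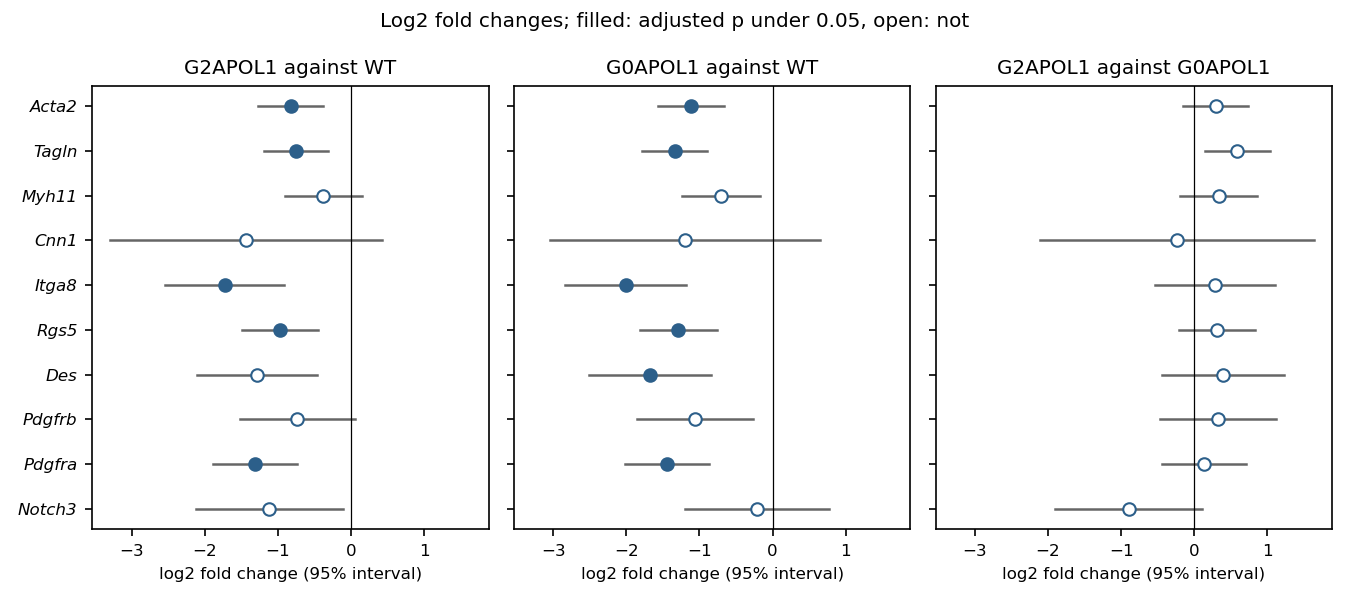
Log2 fold changes of the 10 genes in G2APOL1 against WT, G0APOL1 against WT and G2APOL1 against G0APOL1 (points) with 95% intervals (lines); filled points passed an adjusted p of 0.05. All 20 points against WT lie below 0, 11 of them filled, and the 10 points of G2APOL1 against G0APOL1 are open.

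Among the contractile genes, Acta2 and Tagln fell in both transgenic groups against WT. Acta2 (ENSMUSG00000035783.8, chr19:34241090-34255590 on the minus strand of GRCm38) had 57.7 and 78.6 CPM in G2APOL1, 61.3 and 49.8 CPM in G0APOL1, and 118 and 123 CPM in WT. Both WT libraries were nearly alike and stood well above all 4 transgenic libraries, which overlapped between G2APOL1 and G0APOL1. The log2 fold change was -0.82 ± 0.21 in G2APOL1 against WT (SE; adjusted p = 0.0266) and -1.12 ± 0.21 in G0APOL1 against WT (adjusted p = 0.00547), that is 56.5% of the WT level in G2APOL1 and 46.1% in G0APOL1. The fall in G2APOL1 lost its call without either G2APOL1 library or WT replicate 2 (adjusted p up to 0.468), and the fall in G0APOL1 lost it without G0APOL1 replicate 2 (adjusted p = 0.0598). The closest relative of Acta2 among mouse transcripts, skeletal actin Acta1, matched it at 84% identity over 77.7% of its length, under the 95% set for a near-identical copy, and no other of the 10 genes had such a copy either.

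Tagln (ENSMUSG00000032085.5, chr9:45929619-45936058, minus strand) had 45.3 and 50.4 CPM in G2APOL1, 31.9 and 31.8 CPM in G0APOL1, and 71.6 and 89.8 CPM in WT. Its 3 groups were fully apart, WT highest, G2APOL1 between and G0APOL1 lowest. Its log2 fold change was -0.75 ± 0.20 in G2APOL1 against WT (adjusted p = 0.0381) and -1.34 ± 0.21 in G0APOL1 against WT (adjusted p = 0.00192). The call in G0APOL1 held whichever library was left out (adjusted p up to 0.0193), and that in G2APOL1 was lost without either G2APOL1 library or WT replicate 2 (adjusted p up to 0.421). Of the exonic bases of Tagln, 67.9% lie opposite exons of Pcsk7, a proprotein convertase, and of the antisense gene Gm48529, and the sources used here do not say whether counting used strand, so reads of these genes may be mixed. Pcsk7 had 28.9 and 25.1 CPM in G2APOL1, 25.7 and 30.5 CPM in G0APOL1, and 16.4 and 37.7 CPM in WT, with a log2 fold change of 0.00 ± 0.34 in G2APOL1 against WT and 0.06 ± 0.34 in G0APOL1 against WT. Gm48529 had 7.80 and 6.41 CPM in G2APOL1, 5.87 and 4.73 CPM in G0APOL1, and 20.0 and 13.7 CPM in WT, and fell by 1.67 ± 0.41 in G0APOL1 against WT (adjusted p = 0.0254). In G2APOL1 against WT it gave -1.25 ± 0.40 (adjusted p = 0.0802).

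Myh11, the myosin heavy chain of smooth muscle (ENSMUSG00000018830.10, chr16:14194535-14291372, minus strand), had 35.9 and 44.5 CPM in G2APOL1, 32.5 and 31.5 CPM in G0APOL1, and 62.4 and 41.9 CPM in WT. Here the WT libraries were unlike each other, and WT replicate 2 lay below G2APOL1 replicate 2. The log2 fold change did not pass in G2APOL1 against WT (-0.37 ± 0.24, 95% interval -0.90 to 0.15, adjusted p = 0.399) or in G0APOL1 against WT (-0.71 ± 0.25, interval -1.23 to -0.18, adjusted p = 0.101). Without WT replicate 2 the second of these passed (adjusted p = 0.0234), with a log2 fold change of -0.96.

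Cnn1, calponin, a regulator of actomyosin in smooth muscle (ENSMUSG00000001349.5, chr9:22099216-22109630, plus strand), was the most thinly counted of the 10 genes, with 10 and 41 counts in G2APOL1, 48 and 8 in G0APOL1, and 55 and 78 in WT. On the CPM scale it had 0.857 and 4.38 in G2APOL1, 5.12 and 0.946 in G0APOL1, and 5.45 and 8.57 in WT. In each transgenic group 1 library was more than 5 times the other (5.11 in G2APOL1 and 5.42 in G0APOL1). Both WT libraries were highest, but the log2 fold changes of -1.43 ± 0.86 in G2APOL1 (interval -3.29 to 0.43, adjusted p = 0.361) and -1.20 ± 0.85 in G0APOL1 (interval -3.04 to 0.65, adjusted p = 0.468) did not pass, and a change could not be detected at this spread.

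Des, desmin, the intermediate filament of muscle and mesangial cells (ENSMUSG00000026208.9, chr1:75360329-75368579, plus strand), had 10.4 and 9.83 CPM in G2APOL1, 5.34 and 10.1 CPM in G0APOL1, and 20.5 and 28.7 CPM in WT. Every transgenic library lay below both WT libraries, and the lowest was G0APOL1 replicate 1. Des fell by 1.68 ± 0.39 in G0APOL1 against WT (adjusted p = 0.0177), a call lost without G0APOL1 replicate 1 or WT replicate 2 (adjusted p up to 0.109). In G2APOL1 against WT the value was -1.28 ± 0.38 (interval -2.10 to -0.47), just outside the threshold (adjusted p = 0.0549). That value passed in 5 of the 8 alternative analyses that keep all libraries compared, among them DESeq2 and limma-voom, with adjusted p between 0.0154 and 0.0552.

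The reference promoters of 3 of the genes are shown here because these genes differed in their values: Acta2 followed the average of the 10 genes most closely, Itga8 had the lowest fold changes against WT with all libraries fitted with edgeR, and Notch3 was, after Cnn1, the farthest from the average. Each is the 250 bases before the start of the gene in RefSeq (GRCm38.p6), written 5′ to 3′ on the strand of the gene: chr19:34255374-34255623 (minus strand) for Acta2, chr2:12301945-12302194 (minus strand) for Itga8 and chr17:32166891-32167140 (minus strand) for Notch3. Capitals mark CArG box matches in Acta2 and the letters GGGCGG or their reverse complement CCGCCC in Notch3. The Acta2 gene as located above extends to 34255590, so most of its window lies inside that annotated gene. The windows of Itga8 and Notch3 lie outside their genes as annotated.
Acta2: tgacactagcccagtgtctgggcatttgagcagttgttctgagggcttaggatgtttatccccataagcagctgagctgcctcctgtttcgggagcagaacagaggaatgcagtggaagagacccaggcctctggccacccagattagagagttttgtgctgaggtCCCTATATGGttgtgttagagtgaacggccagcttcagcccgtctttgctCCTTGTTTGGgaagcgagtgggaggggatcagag
Itga8: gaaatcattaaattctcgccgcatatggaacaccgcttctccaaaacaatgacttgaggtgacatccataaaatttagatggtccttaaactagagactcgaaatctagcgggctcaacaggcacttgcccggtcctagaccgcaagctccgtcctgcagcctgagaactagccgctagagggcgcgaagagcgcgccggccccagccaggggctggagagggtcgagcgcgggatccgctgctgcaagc
Notch3: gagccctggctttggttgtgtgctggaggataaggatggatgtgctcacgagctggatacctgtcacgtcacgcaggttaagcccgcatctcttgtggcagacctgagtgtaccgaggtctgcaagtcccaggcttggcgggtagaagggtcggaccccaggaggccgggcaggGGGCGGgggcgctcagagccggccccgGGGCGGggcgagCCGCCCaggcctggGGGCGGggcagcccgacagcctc
RefSeq promoters were matched for 7 of the 10 genes (not for Tagln, Myh11 and Pdgfrb). The search was for the CArG box, which reads CC, then 6 letters of A or T, then GG, and reads alike on both strands. At most 1 substitution was allowed, and only among the 6 middle letters. Among the 7, Acta2 alone held a match, at 84 to 75 and at 34 to 25 bases before its RefSeq start (CCCTATATGG and CCTTGTTTGG), each with 1 substitution. Both matches lie inside the Acta2 gene as located above, which starts farther upstream than in RefSeq. Such a match was held by 8.59% of all 32851 promoters of that length and an exact one by 1.47%. GGGCGG, searched on both strands, was held by Des and Notch3 among the 7 and by 32.7% of all promoters, and TATAAA, also on both strands, by none of the 7 and 12.4% of all. The motifs do not overlap each other in these windows, and a match is a description of letters.

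Itga8 had the lowest log2 fold change of the 10 genes in both comparisons with WT when all libraries were fitted with edgeR. Cnn1, which did not pass, was lower in G2APOL1 with limma-voom and without G2APOL1 replicate 2, and in G0APOL1 without G0APOL1 replicate 1, and Des was lower in G0APOL1 without G0APOL1 replicate 2. Itga8 encodes integrin alpha 8, which mesangial cells and other mesenchymal cells use to bind matrix (ENSMUSG00000026768.10, chr2:12106632-12301922, minus strand). Itga8 had 7.37 and 10.0 CPM in G2APOL1, 8.43 and 5.80 CPM in G0APOL1, and 21.7 and 35.8 CPM in WT. The 4 transgenic libraries overlapped with each other and lay far below both WT libraries, which differed from each other by a ratio of 1.65. The fall was 1.73 ± 0.38 on the log2 scale in G2APOL1 (adjusted p = 0.0141) and 2.01 ± 0.38 in G0APOL1 (adjusted p = 0.00629), which left 30.3% of the WT level in G2APOL1 and 24.8% in G0APOL1. The call was lost without either G2APOL1 library or WT replicate 2 in G2APOL1 against WT (adjusted p up to 0.163), and without G0APOL1 replicate 2 in G0APOL1 against WT (adjusted p = 0.0541).

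Rgs5 (ENSMUSG00000026678.10, chr1:169655501-169695813, plus strand) had 54.7 and 56.2 CPM in G2APOL1, 52.1 and 36.9 CPM in G0APOL1, and 85.0 and 133 CPM in WT. Like Tagln, its 3 groups were fully apart: both WT libraries were above all others, with WT replicate 2 highest, and both G2APOL1 libraries stood above both G0APOL1 libraries. Rgs5 fell by 0.97 ± 0.24 in G2APOL1 against WT (adjusted p = 0.0257) and by 1.29 ± 0.24 in G0APOL1 against WT (adjusted p = 0.00594). The first of these was lost without either G2APOL1 library or WT replicate 2 (adjusted p up to 0.222) and the second without G0APOL1 replicate 2 (adjusted p = 0.0657).

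Pdgfrb, the receptor through which platelet-derived growth factor recruits pericytes and mesangial cells (ENSMUSG00000024620.11), had 23.2 and 22.9 CPM in G2APOL1, 24.7 and 12.1 CPM in G0APOL1, and 26.8 and 49.99 CPM in WT. WT replicate 1 was close to 3 of the transgenic libraries, and WT replicate 2 stood apart above them. The log2 fold changes of -0.73 ± 0.36 in G2APOL1 (interval -1.52 to 0.05, adjusted p = 0.255) and -1.06 ± 0.37 in G0APOL1 (interval -1.85 to -0.27, adjusted p = 0.103) did not pass. Without G0APOL1 replicate 1 or without WT replicate 1, Pdgfrb passed in G0APOL1 against WT, with a log2 fold change down to -1.72. With all libraries it also passed there without a low-count filter (-1.05, adjusted p = 0.00738), and in none of the other 7 alternatives that keep all libraries compared (adjusted p up to 0.191).

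Pdgfra, the sister receptor, which fibroblasts and other interstitial mesenchymal cells carry (ENSMUSG00000029231.15, chr5:75152292-75198215, plus strand), had 19.4 and 15.9 CPM in G2APOL1, 16.7 and 15.5 CPM in G0APOL1, and 39.3 and 48.2 CPM in WT. The 4 transgenic libraries were close together, and all lay below both WT libraries. Pdgfra fell by 1.31 ± 0.27 in G2APOL1 against WT (adjusted p = 0.00988) and by 1.44 ± 0.27 in G0APOL1 against WT (adjusted p = 0.00547). The call in G0APOL1 held whichever library was left out (adjusted p up to 0.0423), and that in G2APOL1 was lost without either G2APOL1 library (adjusted p up to 0.139).

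Notch3, the receptor that maintains arterial smooth muscle (ENSMUSG00000038146.7, chr17:32120820-32166852, minus strand), had 3.43 and 7.91 CPM in G2APOL1, 11.2 and 9.82 CPM in G0APOL1, and 9.82 and 14.6 CPM in WT. Both G2APOL1 libraries lay below all other libraries, and the G0APOL1 libraries overlapped with WT. The G2APOL1 difference from WT, -1.11 ± 0.47, had an unadjusted p of 0.0329 and did not pass after adjustment (adjusted p = 0.173). In G0APOL1 against WT the value was -0.21 ± 0.46 (interval -1.20 to 0.77, adjusted p = 0.854), and it changed sign to 0.10 without WT replicate 2.

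**Figure D3:**
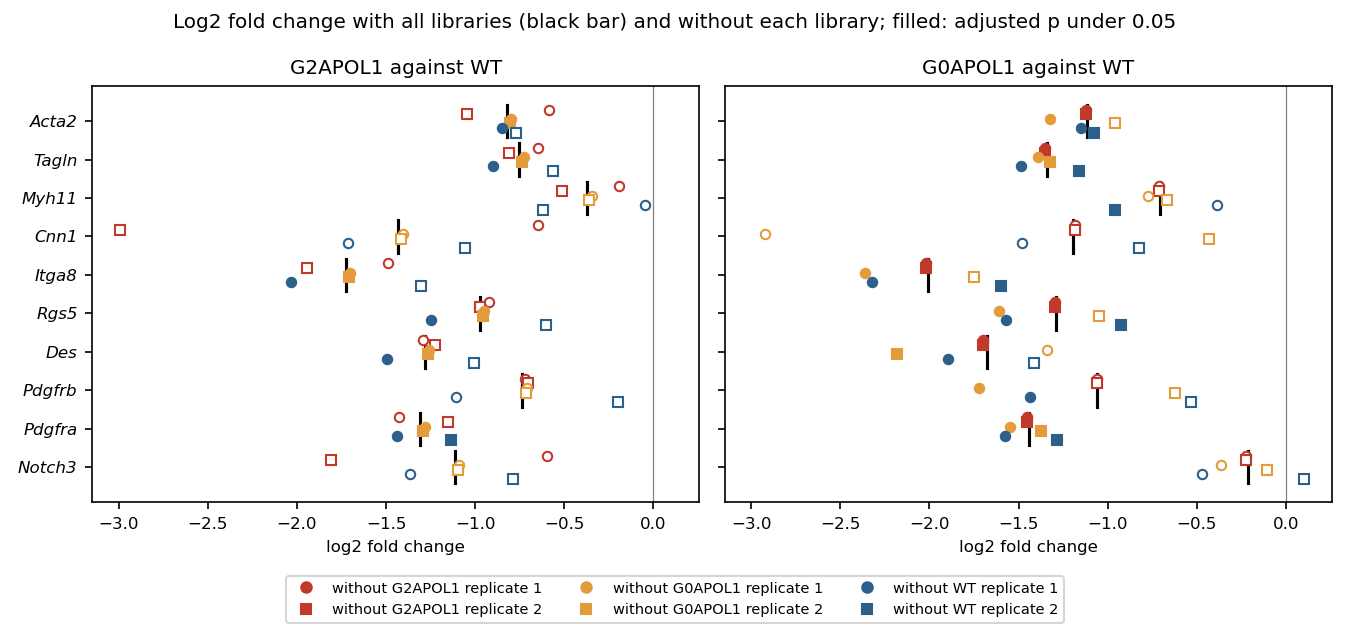
Log2 fold change of each of the 10 genes with all 6 libraries (black bar) and without each library in turn (symbols, filled where the adjusted p was under 0.05), for each transgenic group against WT. Against WT, symbols without a G2APOL1 library are open for all 10 genes in G2APOL1 against WT, while those of Tagln and Pdgfra are filled throughout in G0APOL1 against WT.

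G2APOL1 against G0APOL1 asks whether the risk form differs from the reference form, and here 0 of the 10 genes passed in edgeR's quasi-likelihood fit. With that test, 0.48% of all genes passed, 0.174% as higher and 0.306% as lower. At an unadjusted p under 0.05 there was 1 of the 10 genes, Tagln, against 6.74% of all genes, and DESeq2 and limma-voom also called 0 of the 10. Of the 10 fold changes, 8 were above 0 and 2 below, against 48.3% above and 51.7% below among all genes. The median was 0.31 for the 10 genes and -0.02 for all genes. The G2APOL1 libraries were both above both G0APOL1 libraries for Tagln, Myh11 and Rgs5, against 19.7% of all genes. They were both below for Notch3, against 19.5% of all genes. Tagln had 150% of its G0APOL1 level in G2APOL1, a log2 difference of 0.59 ± 0.21 (interval 0.14 to 1.03, unadjusted p = 0.0133, adjusted p = 0.502). Notch3 had 53.6% of its G0APOL1 level, a log2 difference of -0.90 ± 0.47 (interval -1.91 to 0.11, adjusted p = 0.795). The intervals of the other 8 differences were -0.15 to 0.74 for Acta2, -0.20 to 0.86 for Myh11, -0.20 to 0.84 for Rgs5, -0.44 to 0.71 for Pdgfra, -0.54 to 1.11 for Itga8, -0.44 to 1.23 for Des, -0.47 to 1.12 for Pdgfrb and -2.11 to 1.64 for Cnn1. A 2-fold higher level in G2APOL1 thus lies within the intervals of Tagln, Itga8, Des, Pdgfrb and Cnn1 and outside those of Acta2, Myh11, Rgs5, Pdgfra and Notch3. A 2-fold lower level in G2APOL1 lies within the intervals of Notch3 and Cnn1 and outside those of the other genes. The values of Cnn1 and Pdgfrb changed sign when 1 library was left out, Cnn1 to 0.54 without G2APOL1 replicate 1 and 1.52 without G0APOL1 replicate 1, and Pdgfrb to -0.10 without G0APOL1 replicate 2.

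Profiles over the 6 libraries differed in how close they lay to the average of the 10 genes. As a measure of likeness, the log2 CPM of each gene was centred on its mean over the 6 libraries, and the root mean square difference between profiles was taken, so that a smaller value means a closer profile. Acta2 lay closest to the average of the 10 profiles, at 0.136, followed by Rgs5 at 0.152, while Notch3 at 0.563 and Cnn1 at 0.759 lay farthest. The average includes the gene itself in each case. Notch3 had 40 to 133 counts per library and Cnn1 8 to 78, and the part of count noise in their distance was not tested. The closest pair was Acta2 and Tagln at 0.187, and the next pairs were Tagln with Rgs5 at 0.201 and Rgs5 with Pdgfrb at 0.204. The average profile stood at -0.51 and -0.08 in G2APOL1, -0.26 and -0.66 in G0APOL1, and 0.56 and 0.96 in WT. Among genes outside the 10, the 8 whose profile was nearest to that average, between 0.0839 and 0.138, were the transcription factor Elk3, the cytoskeletal protein utrophin (Utrn), the tight junction protein Tjp1, the actin regulator Wipf1, the membrane tether Esyt1, the adhesion receptor Icam1, the lectin Lgals3 and the transcription factor Tcf4. Taken gene by gene, the nearest was Icam1 for Acta2, at 0.0412, and Limd2 for Myh11, at 0.0467, while the nearest to Cnn1, Cpz, was no closer than 0.214. These are descriptions over 6 libraries that share 3 groups.

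**Figure D4:**
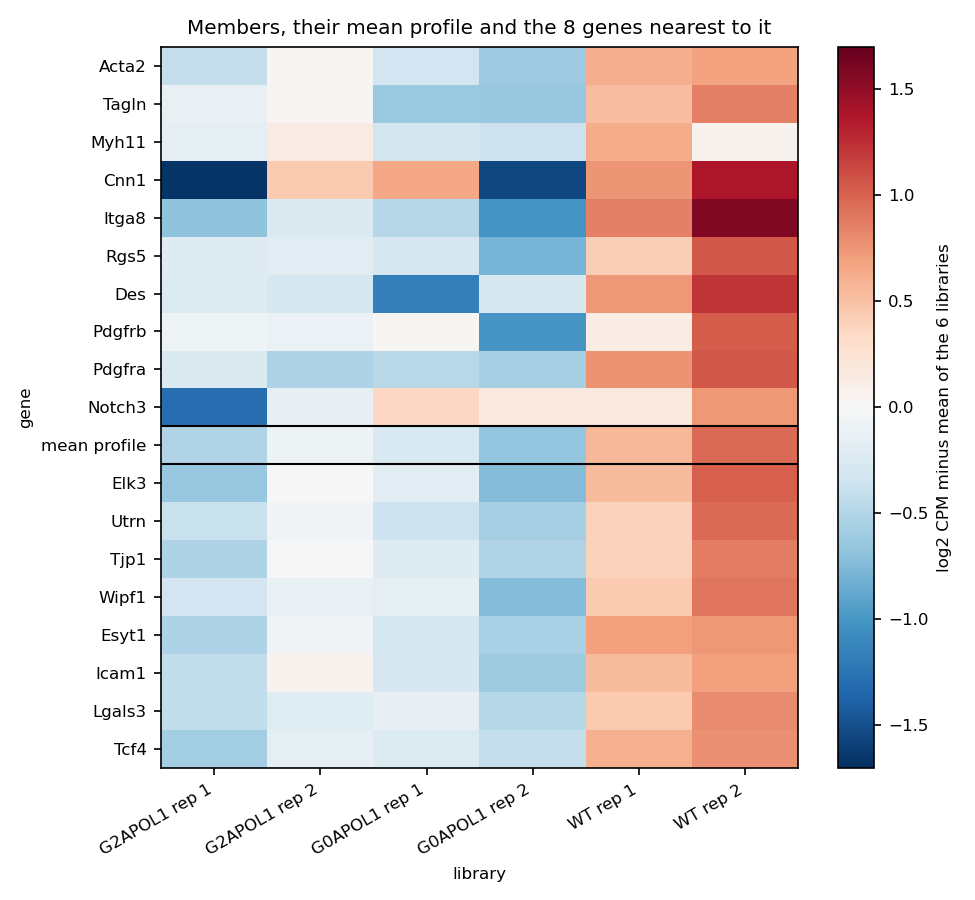
Log2 CPM minus the mean of the 6 libraries (colour) for the 10 genes, their mean profile and the 8 genes nearest to it (rows), in each library (columns). The WT columns are the highest in the mean profile, at 0.56 and 0.96; the rows of Cnn1 and Notch3 depart from it, with lows of -1.67 and -1.29 in G2APOL1 replicate 1.

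Of 22 tested genes of a list of the contractile apparatus outside the 10, 2 fell and none rose in G2APOL1 against WT (median -0.55), 8 fell and none rose in G0APOL1 against WT (median -0.63), and none passed in G2APOL1 against G0APOL1, where 6 had an unadjusted p under 0.05. Tpm1, a tropomyosin, had 63.4 and 55.5 CPM in G2APOL1 against 113 and 108 CPM in WT, a fall of 0.90 ± 0.18 (adjusted p = 0.0101). Ppp1r14a, an inhibitor of myosin phosphatase, had 4.03 and 2.03 CPM in G2APOL1 against 11.7 and 12.5 CPM in WT (-1.99 ± 0.53, adjusted p = 0.0352). For both, the G2APOL1 libraries lay well below WT, and the call was lost without either G2APOL1 library, for Ppp1r14a also without either WT library (adjusted p up to 0.208 for Tpm1 and 0.315 for Ppp1r14a). In G0APOL1 against WT, the regulatory light chain Myl9 fell by 1.40 ± 0.20 (adjusted p = 0.00127), the calponin relative Cnn2 by 2.00 ± 0.28 (adjusted p = 0.00111) and filamin (Flna) by 1.23 ± 0.21 (adjusted p = 0.00379). Each of these 3 calls held whichever library was left out. The other 5 that fell there were Cald1, Csrp1, Ppp1r14a, Tpm1 and Tpm2, with log2 fold changes between -1.99 (Ppp1r14a) and -0.94 (Tpm1). Several of the list's genes, Cnn2, Flna and Tpm1 among them, are also made by cells other than smooth muscle. Acta1 and Actc1, the actins of skeletal and cardiac muscle, had at most 0.534 and 0.214 CPM in any library and could not be tested.

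Of 10 tested genes around myocardin and serum response factor, none passed with edgeR's quasi-likelihood test in G2APOL1 against WT, where 1 had an unadjusted p under 0.05. In G0APOL1 against WT 1 rose, the Hippo pathway factor Tead1, with 35.0 and 50.7 CPM in G0APOL1 against 18.4 and 20.5 CPM in WT (1.14 ± 0.26, adjusted p = 0.0177, and 0.14 without G0APOL1 replicate 2). Srf, serum response factor itself, had 26.3 and 23.2 CPM in G2APOL1, 27.0 and 23.5 CPM in G0APOL1, and 15.0 and 19.01 CPM in WT. Both transgenic groups lay above WT, and the differences of 0.54 in G2APOL1 (adjusted p = 0.273) and 0.57 in G0APOL1 (adjusted p = 0.246) did not pass. Myocd, myocardin, had counts in G2APOL1 replicate 2 only, at 0.214 CPM, and could not be tested.

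Among PDGF ligands and partners, none of 10 tested genes passed in G2APOL1 against WT, where 2 had an unadjusted p under 0.05, and 1 fell in G0APOL1 against WT, Nrp1, a co-receptor that endothelium also carries (-1.34 ± 0.28, adjusted p = 0.0104, and up to 0.0895 without G0APOL1 replicate 2 or WT replicate 2). The ligand Pdgfb, which endothelium releases, had 14.1 and 12.1 CPM in G2APOL1, 9.93 and 7.81 CPM in G0APOL1, and 16.4 and 25.2 CPM in WT. Its transgenic libraries all lay below WT, and its differences from WT, -0.66 in G2APOL1 (adjusted p = 0.292) and -1.22 in G0APOL1 (adjusted p = 0.0526), did not pass. Of 14 tested Notch ligands, receptors and targets, 1 fell in each comparison with WT, Notch4, the receptor of endothelium, with 12.4 and 16.2 CPM in G2APOL1, 10.6 and 18.0 CPM in G0APOL1, and 33.7 and 52.2 CPM in WT. Both transgenic groups lay below WT without overlap. Its log2 fold change was -1.58 ± 0.33 in G2APOL1 (adjusted p = 0.0117) and -1.59 ± 0.34 in G0APOL1 (adjusted p = 0.0111). Each call was lost without WT replicate 2 and without replicate 1 of its transgenic group (adjusted p up to 0.119 in G2APOL1 and 0.0879 in G0APOL1). The Jagged ligand Jag1 and the target Hes1 did not pass in any comparison.

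Of 13 tested pericyte and mural markers outside the 10, none passed in any of the 3 comparisons, with medians of -0.43 in G2APOL1 against WT and -0.68 in G0APOL1 against WT, and 2 genes in each of these had an unadjusted p under 0.05, against 0 in G2APOL1 against G0APOL1. The sum of this list, 329 and 342 CPM in G2APOL1, 311 and 290.1 CPM in G0APOL1, and 284 and 298 CPM in WT, was 43.2% to 60.2% Anpep, an aminopeptidase that the proximal tubule brush border also carries. Without Anpep, left out after its values were seen, the sum was 131 and 138 CPM in G2APOL1, 128 and 126 CPM in G0APOL1, and 146 and 169 CPM in WT, with all 4 transgenic libraries below both WT libraries. Kcnj8, the potassium channel subunit that marks pericytes, had 1.89 and 1.28 CPM in G2APOL1, 0.854 and 1.18 CPM in G0APOL1, and 3.97 and 9.34 CPM in WT, without overlap, and its differences from WT, -2.06 in G2APOL1 (adjusted p = 0.137) and -2.69 in G0APOL1 (adjusted p = 0.0639), did not pass. Cspg4, a proteoglycan of pericytes, overlapped between the groups, with 27.3 and 21.8 CPM in G2APOL1, 17.9 and 23.8 CPM in G0APOL1, and 25.9 and 14.9 CPM in WT.

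Of 14 tested mesangial and renin lineage genes, 3 fell in G2APOL1 against WT and 2 in G0APOL1 against WT, and none rose. Gata3, a transcription factor of mesangial cells that the collecting duct also expresses, had 10.9 and 7.91 CPM in G2APOL1 against 21.1 and 29.1 CPM in WT (-1.41 ± 0.35, adjusted p = 0.0249). Npnt, nephronectin, the matrix ligand of the integrin that contains the Itga8 product, had 74.8 and 72.0 CPM in G2APOL1, 129.9 and 97.1 CPM in G0APOL1, and 133 and 167 CPM in WT, and fell in G2APOL1 against WT (-1.03 ± 0.20, adjusted p = 0.00788). Gja4, a connexin of renin cells and of endothelium, fell in G0APOL1 against WT (-2.11 ± 0.46, adjusted p = 0.0122). Without 1 library the calls of Gata3 (either G2APOL1 library or WT replicate 2, adjusted p up to 0.24), Npnt (either G2APOL1 library, up to 0.115) and Gja4 (G0APOL1 replicate 1, 0.0816) were lost. The remaining fall in both comparisons was Plvap, which is an endothelial gene placed in this list (-1.16 ± 0.18 in G2APOL1, adjusted p = 0.00251, and -1.56 ± 0.19 in G0APOL1, adjusted p = 0.00037), a call lost in G2APOL1 without G2APOL1 replicate 1 (adjusted p = 0.0974). Ren1, renin, had 39.7 and 27.2 CPM in G2APOL1, 56.7 and 43.5 CPM in G0APOL1, and 51.3 and 160 CPM in WT, where WT replicate 2 was high, and did not pass. Of 7 tested regulators of G protein signalling other than Rgs5, none passed in any comparison, with 0, 1 and 1 at an unadjusted p under 0.05 in G2APOL1 against WT, G0APOL1 against WT and G2APOL1 against G0APOL1. Of 4 intermediate filament genes of mesenchyme, vimentin (Vim) fell in both comparisons with WT, with 57.4 and 59.9 CPM in G2APOL1, 49.4 and 31.3 CPM in G0APOL1, and 89.5 and 146 CPM in WT (-1.01 ± 0.26 in G2APOL1, adjusted p = 0.0328, and -1.54 ± 0.27 in G0APOL1, adjusted p = 0.00386). The call of Vim in G2APOL1 was lost without either G2APOL1 library or WT replicate 2 (adjusted p up to 0.26).

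Markers of several other kidney cell types moved with the 10 genes, and their part in the result was not tested. Endothelial markers summed to 409 and 398 CPM in G2APOL1, 396 and 326 CPM in G0APOL1, and 682 and 816 CPM in WT, and 8 of 15 fell in G2APOL1 and 9 of 15 in G0APOL1 against WT. Fibroblast markers summed to 448 and 434 CPM in G2APOL1, 342 and 307 CPM in G0APOL1, and 541 and 862 CPM in WT. Of these, 4 of 14 were lower in G2APOL1 and 7 of 14 in G0APOL1. Cxcl12 made up 26.3% to 63.2% of these sums, with 283.5 and 258 CPM in G2APOL1, above both WT libraries at 233 and 227 CPM. In G0APOL1 it had 182 and 179.9 CPM, and neither difference from WT passed. All transgenic sums lay below both WT sums for these 2 lists. Urothelium markers, which come from the renal pelvis, summed to 17.5 and 27.6 CPM in G2APOL1, 14.8 and 28.0 CPM in G0APOL1, and 206 and 117 CPM in WT, with 4 of 8 lower in G2APOL1 and 5 of 8 in G0APOL1. Elastic fibre genes of arteries summed to 161 and 166 CPM in G2APOL1, 242 and 148 CPM in G0APOL1, and 237 and 414 CPM in WT, with 3 of 8 lower in each comparison, though G0APOL1 replicate 1 lay above WT replicate 1. Among the tubule markers, 12 of 14 genes of the proximal tubule were higher in each comparison with WT, though their sums overlapped between the groups. Kap, an androgen-regulated protein of the proximal tubule, made up 65.3% to 83.8% of these sums, and its log2 fold changes of 0.05 in G2APOL1 (adjusted p = 0.945) and -0.08 in G0APOL1 (adjusted p = 0.927) did not pass. Without Kap, left out after its values were seen, the other 13 genes summed to 17140.5 and 17332 CPM in G2APOL1, 17512 and 15649 CPM in G0APOL1, and 8411 and 6276 CPM in WT, so that all 4 transgenic sums lay above both WT sums. Of 9 podocyte genes, none passed in any comparison, and 2 in G2APOL1 against WT, 3 in G0APOL1 against WT and 1 in G2APOL1 against G0APOL1 had an unadjusted p under 0.05. Podocyte markers, the genes of the glomerular filter, summed to 175 and 179 CPM in G2APOL1, 168 and 119 CPM in G0APOL1, and 181 and 246 CPM in WT, with both transgenic groups below WT.

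**Figure D5:**
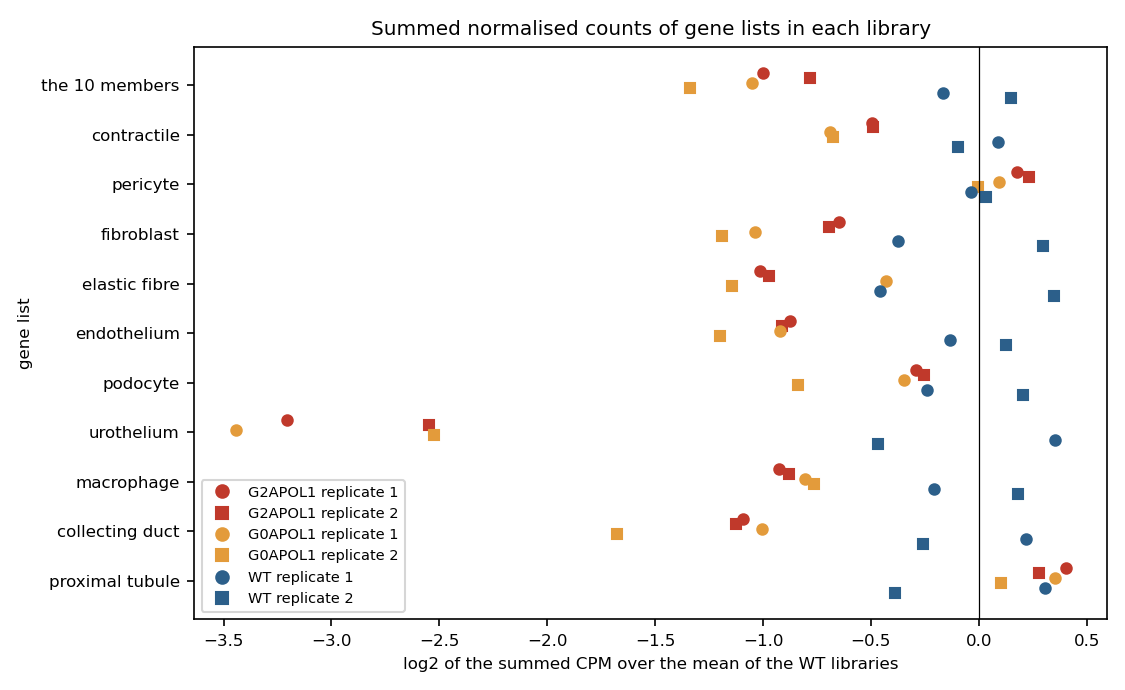
Log2 of the summed normalised counts of gene lists in each library over the mean of the WT libraries (horizontal axis); each symbol is a library. The 10 genes lie at -1.001 and -0.78 in G2APOL1, -1.05 and -1.34 in G0APOL1, and -0.17 and 0.15 in WT; the urothelium list lies at -2.53 or lower in all 4 transgenic libraries.

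Tnc, tenascin C, a matrix protein in the fibroblast list, had 1.03 and 3.53 CPM in G2APOL1, 1.71 and 2.01 CPM in G0APOL1, and 31.3 and 36.9 CPM in WT. Upk2, a urothelial plaque protein, had 2.49 and 5.66 CPM in G2APOL1, 1.28 and 0.591 CPM in G0APOL1, and 18.5 and 27.8 CPM in WT. Both genes were lower in every transgenic library than in either WT library. The log2 fold change of Tnc against WT was -3.93 ± 0.51 in G2APOL1 (adjusted p = 0.000766) and -4.19 ± 0.52 in G0APOL1 (adjusted p = 0.000458), and both calls held whichever library was left out. That of Upk2 was -2.51 ± 0.51 in G2APOL1 (adjusted p = 0.00935, and up to 0.108 without G2APOL1 replicate 1 or WT replicate 2) and -4.596 ± 0.59 in G0APOL1 (adjusted p = 0.000536). Emcn, endomucin of capillary endothelium, had 36.5 and 37.5 CPM in G2APOL1, 33.5 and 26.7 CPM in G0APOL1, and 102 and 98.6 CPM in WT, and fell by 1.44 ± 0.20 in G2APOL1 (adjusted p = 0.00123) and by 1.73 ± 0.20 in G0APOL1 (adjusted p = 0.000335), whichever library was left out. Of 7 collecting duct genes 2 fell in G2APOL1 and 3 in G0APOL1, among them the water channel Aqp2, of 9 macrophage genes 4 fell in each, and of 5 red cell genes 3 fell in G2APOL1 and 2 in G0APOL1. Skeletal muscle markers Myh2, Myh4 and Tnni2 were at 0 in every library, and the single tested gene of that list, Pvalb, is also made in the distal tubule and rose in G0APOL1 against WT (1.45 ± 0.29, adjusted p = 0.00886, and 0.0733 without G0APOL1 replicate 1). Of 2 tested nerve and Schwann cell genes none passed in any comparison, with 1 at an unadjusted p under 0.05 in each comparison with WT and 0 in G2APOL1 against G0APOL1. Of 4 adipocyte genes 1 fell in G0APOL1 against WT, Fabp4 (-2.20 ± 0.41, adjusted p = 0.0153), which made up 30.7% to 99.4% of the list's sums. The list stood apart in G2APOL1 replicate 2, at 237 CPM against 27.9 CPM in G2APOL1 replicate 1. It had 27.0 and 24.6 CPM in G0APOL1, and 121 and 114 CPM in WT. Of the WT sums, Fabp4 had 96.4 and 114 CPM. Adipoq had 0 and 15.5 CPM in G2APOL1, 0 and 0 CPM in G0APOL1, and 3.77 and 0 CPM in WT. In G2APOL1 replicate 2 the 10 genes summed to the highest value of the 4 transgenic libraries, and the part of fat tissue in this was not tested. In G2APOL1 against G0APOL1, the single call in all these lists was Egf of the thick limb and distal tubule, with 364 and 404 CPM in G2APOL1 against 824 and 938 CPM in G0APOL1 (-1.20 ± 0.19, adjusted p = 0.0142), a call lost without either G2APOL1 library or G0APOL1 replicate 2 (adjusted p up to 0.452). It was also the single call among 6 thick limb genes in G0APOL1 against WT, where it rose by 1.61 ± 0.19 (adjusted p = 0.000375), and in G2APOL1 against WT none of the 6 passed, with 3 at an unadjusted p under 0.05.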

How the data were processed

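The authors deposited a table of expected counts (estimated read numbers per gene, not scaled between libraries) for 54146 genes in 6 libraries; between 1.39% and 1.55% of values per library are not whole. Per the submitters' processing notes, the build is mm10 and Cell Ranger ARC 2.0.2 was used, with no role stated; the sources used here do not name the aligner or counter or say whether counting used strand. Per the labels' protocols, RNA from 10 mg of frozen kidney was made into libraries with the NEBNext Ultra kit, and all 6 carry batch number 1. Identifiers were matched to GENCODE M21 (GRCm38) without version: 54079 matched and 67 did not.

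These expected counts were first rounded to integers. Genes were filtered with filterByExpr by group (14386 tested), scaled with TMM and tested in a single fit of all 6 libraries with edgeR 4.0.16 (R 4.3.3; glmQLFit with robust estimation, quasi-likelihood F test, two-sided), with 3 residual degrees of freedom, a median of 10.2 prior degrees of freedom and a common biological coefficient of variation of 0.315. P-values were adjusted by Benjamini-Hochberg over all genes tested, with a threshold of 0.05. The standard error is the log2 fold change divided by the square root of F, and intervals are at 95%. Total counts of 8490396 to 11800932 per library limit the precision of thinly counted genes. CPM are on the TMM scale, and CPM per kb divides by the annotated exon length of a gene. Profiles use log2 CPM with a prior count of 2.

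The 10 genes and 21 context lists (223 genes) were chosen with earlier results of these data known. All 10 are named in each comparison. From each list, the named genes are up to 3 with the smallest p among those past the threshold in a comparison, and the 8 genes nearest to the mean profile are named. Further list genes (Srf, Myocd, Pdgfb, Jag1, Hes1, Kcnj8, Cspg4, Anpep, Ren1, Acta1, Actc1, Cald1, Csrp1, Tpm2, Adipoq and Cxcl12), and Gm48529 and Pcsk7, were chosen for description after their values were seen. Near-identical copies were sought with minimap2 2.31 (identity of 95% or more along 50% or more of a transcript). Alternatives were a stricter low-count filter and none, the tools DESeq2 1.42.0 and limma-voom (limma 3.58.1), size factors from DESeq2, a replicate block, removal of mitochondrial transcripts, a fit without the group not compared, and removal of each library in turn. Sums of 2 lists without Kap or Anpep were added after the data were seen.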

Additional observations from a re-analysis of the deposited data

How the results depend on the processing

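Against WT, the 5 calls in G2APOL1 and the 6 calls in G0APOL1 kept their direction and passed under all 8 alternatives of scaling, filter, tool, libraries fitted, block or mitochondrial transcripts. None of the 10 genes passed in G2APOL1 against G0APOL1 under any of the 14 settings. Over these settings, 1344 values of single genes were recomputed, for the 10 genes and for list genes named because they passed in that comparison. Such list genes could lose a call but not gain one. Of the values, 1215 kept their direction and their side of the threshold, 113 lost and 12 gained a call, and 4 changed sign. The 4 were Notch3 in G0APOL1 against WT without WT replicate 2 (0.10, range over libraries left out -0.47 to 0.10), Cnn1 in G2APOL1 against G0APOL1 without G2APOL1 replicate 1 (0.54) or G0APOL1 replicate 1 (1.52, range -1.81 to 1.52), and Pdgfrb in G2APOL1 against G0APOL1 without G0APOL1 replicate 2 (-0.10, range -0.10 to 1.01). Leaving out 1 library gave between 0 and 6 of the 10 genes in G2APOL1 against WT, between 3 and 7 in G0APOL1 against WT and 0 in G2APOL1 against G0APOL1. Over all genes it gave between 338 and 1835 calls in G2APOL1 against WT, against 1178 with all libraries, between 599 and 1721 in G0APOL1 against WT, against 1175, and between 27 and 150 in G2APOL1 against G0APOL1, against 69. A group left with 1 library is assumed to vary like the others. Without a low-count filter, G2APOL1 gave 1806 calls against WT and 245 against G0APOL1. Fitting only the 4 libraries compared gave 658 for G0APOL1 against WT and 119 for G2APOL1 against G0APOL1, and DESeq2 gave 146 for the last. The cause of these shifts was not tested.

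The replicate numbers were not shown to pair samples: deviations of same-numbered libraries from their group means had correlations of 0.0578 (G2APOL1 and WT), 0.0956 (G0APOL1 and WT) and 0.0426 (G2APOL1 and G0APOL1). With a replicate block, 1724, 1618 and 120 genes passed in G2APOL1 against WT, G0APOL1 against WT and G2APOL1 against G0APOL1, with 6, 6 and 0 of the 10 genes among them. Depth limits Cnn1 most, with 8 to 78 counts per library.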
